A study of Mus musculus with 32 samples.

Results

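The oxidative phosphorylation subunits described here are the 79 genes, of 24940 in the expression table, whose symbols mark them as nuclear-encoded subunits of complex I (Nduf), complex III (Uqcr), complex IV (Cox4 to Cox8) or complex V (Atp5). By symbol, 35 were placed in complex I, 8 in complex III, 20 in complex IV and 15 in complex V, with Ndufa4 and Ndufa4l2 counted in complex IV. The remaining gene, Atp5s, codes for a factor and not for a structural subunit and was kept apart. Only 4 of the 79 lie on chromosome 11 (Uqcr10 and Uqcrq of complex III, Atp5h and Atp5g1 of complex V). They are shown apart because expression along that chromosome was lower in one of the genotypes. A mean of at least 1 RPKM (reads scaled to transcript length and to the reads of the library) in either genotype was reached by 72 members, namely 34 of complex I, 8 of complex III, 15 of complex IV, 14 of complex V and Atp5s. The members below this level were Ndufs5, Cox4i2, Cox6a2, Cox8b, Cox8c, Ndufa4l2 and Atp5l.

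The study concerns CTCF, a DNA-binding protein with zinc fingers that organises chromatin loops, in mouse embryonic stem (ES) cells of strain 129. All cells expressed CTCF fused to green fluorescent protein. In GC cells the fusion was otherwise whole (genotype GFP-CTCF), and in d8 cells it lacked zinc finger 8 (genotype GFP-CTCF-Del8). Polyadenylated RNA was sequenced from 2 GC lines (3 libraries each, marked A to C) and 3 d8 lines (3, 3 and 2 libraries), and CTCF binding is given by 1 peak list for GC and 1 for Del8 cells, from ChIP-seq. Each line is a separate line of ES cells, and the libraries of a line share it, so the line was the unit of the comparison between genotypes.

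Oxidative phosphorylation takes place in the inner mitochondrial membrane. Complex I oxidises NADH and passes the electrons to ubiquinone, complex III passes them on to cytochrome c, and complex IV reduces oxygen. These steps pump protons, and complex V, the ATP synthase, uses their return to make ATP. Most subunits are encoded in the nucleus, while the mitochondrial genome codes for a small set of core subunits that are not among the members. ES cells rely strongly on glycolysis and carry immature mitochondria, but they express the subunit genes throughout.

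The libraries held 14.3 to 16.7 M reads, of which 12 to 14.1 M lay in genes, and the members took 0.918 to 1.17% of the reads in genes. Ctcf itself stood at 5.58 to 6.23 RPKM in GC line 1. GC line 2 had 22.9 to 30.8 RPKM, and libraries from d8 cells had 23.2 to 37.2 RPKM. These levels cannot tell the deletion from the whole fusion. Library GC 1C stood apart in the sum of its RPKM over all genes (371435, against 325809 to 346064 in the others) and had the highest summed level of the members. Values without it are given beside the sums, the medians by complex and some of the counts, and for single members where they moved most. Among markers of other cell types, 5 of 7 tested fibroblast or feeder genes were lower in d8, against 5.74% of all genes tested. Thy1 of that list went the other way, at 3.67 RPKM in GC and 5.15 RPKM in d8 (adjusted p = 0.13 in limma). The summed level of the list was 57.3 to 202 RPKM in GC and 19.0 to 41.8 RPKM in d8 libraries. No gene of that list was at 0 in all libraries. Of 7 primitive endoderm markers tested 1 was higher in d8 (0 lower and 2 higher at an unadjusted p under 0.05, limma). Their median log2 fold change was 0.89, with 1 of the 7 below 0. Of 6 trophoblast markers 0 passed limma's threshold (1 lower and 0 higher at an unadjusted p under 0.05). The part of these cell types in the results below was not tested. Of 10 ES cell markers Nanog fell from 124 to 55.1 RPKM (-1.14 on the log2 scale, adjusted p = 0.029 in limma) and Tdgf1 rose from 185 to 257 RPKM (0.47, adjusted p = 0.030). The list summed to 1626 to 2124 RPKM in GC and 1770 to 2188 RPKM in d8 libraries.

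Promoters of the 5 members that fell in d8 are printed first, because the deposited CTCF peaks reach 2 of them. A sixth, Ndufv1 of complex I, is shown as the member whose promoter holds the CTCF consensus, under a GC and a Del8 peak. The sequences are the 250 bases before the annotated start, from RefSeq (GRCm38.p6), 5′ to 3′ along the strand of the gene. Capitals mark matches, on either strand, to NRF1 (GCATGCGC), YY1 (AAGATGGC), the ETS family (CCGGAAG) the CTCF core letters AGGGGG or the longer CTCF consensus, both chosen after these promoters had been read. In order, the windows are chr8:83566508-83566757 (+ strand) for Ndufb7, chr5:108434400-108434649 (- strand) for Atp5k, chr1:58586147-58586396 (+ strand) for Ndufb3, chr11:4704345-4704594 (- strand) for Uqcr10, chr11:115419920-115420169 (- strand) for Atp5h and chr19:4012756-4013005 (- strand) for Ndufv1.
Ndufb7: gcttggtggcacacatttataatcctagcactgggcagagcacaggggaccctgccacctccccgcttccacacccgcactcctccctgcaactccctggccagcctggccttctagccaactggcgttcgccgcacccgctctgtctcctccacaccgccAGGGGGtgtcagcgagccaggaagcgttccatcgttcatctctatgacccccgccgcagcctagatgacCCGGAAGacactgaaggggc
Atp5k: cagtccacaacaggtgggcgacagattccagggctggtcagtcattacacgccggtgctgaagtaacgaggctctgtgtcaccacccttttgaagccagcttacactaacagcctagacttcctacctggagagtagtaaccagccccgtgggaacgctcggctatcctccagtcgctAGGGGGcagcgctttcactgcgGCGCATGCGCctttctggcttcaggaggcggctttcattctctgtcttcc
Ndufb3: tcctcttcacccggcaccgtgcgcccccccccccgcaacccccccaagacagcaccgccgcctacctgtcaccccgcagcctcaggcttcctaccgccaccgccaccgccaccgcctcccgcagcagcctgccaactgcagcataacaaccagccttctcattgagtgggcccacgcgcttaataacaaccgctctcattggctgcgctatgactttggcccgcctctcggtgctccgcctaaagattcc
Uqcr10: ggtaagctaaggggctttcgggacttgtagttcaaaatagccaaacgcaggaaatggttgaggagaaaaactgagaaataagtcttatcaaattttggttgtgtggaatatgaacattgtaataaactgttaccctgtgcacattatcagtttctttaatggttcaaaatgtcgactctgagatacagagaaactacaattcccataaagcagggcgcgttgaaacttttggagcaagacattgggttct
Atp5h: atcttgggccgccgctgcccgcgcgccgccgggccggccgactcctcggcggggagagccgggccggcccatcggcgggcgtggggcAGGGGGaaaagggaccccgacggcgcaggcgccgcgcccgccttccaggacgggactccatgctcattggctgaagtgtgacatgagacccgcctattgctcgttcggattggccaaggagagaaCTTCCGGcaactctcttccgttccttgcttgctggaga
Ndufv1: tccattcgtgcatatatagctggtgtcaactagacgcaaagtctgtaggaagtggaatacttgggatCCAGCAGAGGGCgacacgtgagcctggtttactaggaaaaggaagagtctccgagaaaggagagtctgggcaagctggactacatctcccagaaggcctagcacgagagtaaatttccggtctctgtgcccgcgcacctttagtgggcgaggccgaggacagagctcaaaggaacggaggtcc

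The Ndufb7 and Atp5k promoters each hold 1 AGGGGG, whose first base lies 89 bases before the start in Ndufb7 and 72 bases before it in Atp5k. The GC peaks at these genes (chr8:83566572-83566804 and chr5:108434353-108434585, mm10) both had their centre 70 bp upstream of the start and span these letters. The Del8 peaks were centred 113 bp (Ndufb7) and 137 bp (Atp5k) upstream. In Atp5k the NRF1 letters also occur, on both strands with overlapping matches, from 50 bases before the start. In Ndufv1 the consensus begins 183 bases before the start, within the GC peak (chr19:4012786-4013018) and the Del8 peak (chr19:4012849-4013095). The Atp5h window holds AGGGGG and an ETS match without a peak within 1 kb, and the Ndufb3 and Uqcr10 windows hold none of the letters.

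A RefSeq promoter was found for 65 members. In windows of 250 bases before and 50 after the start, NRF1 letters occurred in 9 members (13.8%, against 3.05% of 27025 genes). NRF1 is a transcription factor known for its binding at nuclear genes of mitochondrial proteins. YY1 letters occurred in 10 members (15.4% against 3.19%) and ETS letters, which GABP reads, in 14 (21.5% against 9.93%). The CTCF core letters occurred in 15 members (23.1% against 27.8%) and the CTCF consensus in 1, Ndufv1 (1.54% against 0.636%). Leaving the CTCF letters aside, 23 members matched 1 of the factors and 5 matched 2. Such matches describe the letters in the window and not binding.

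A GC peak lay with its centre within 1 kb of the start of 16 of the 79 members (20.3%). Of the 72 members past the expression filter these were 22.2%, against 13.9% of all genes tested. A Del8 peak lay there in 10 members (12.7%), or 13.9% of the 72 against 10.0% of all genes tested. All 10 also had the GC peak, so 62.5% of the 16 kept a peak in the Del8 list, against 59.7% of the tested genes with a GC peak. The 16 comprise 11 of complex I (such as Ndufv1, the NADH-binding flavoprotein), Uqcrc1 of complex III and Atp5d, Atp5f1, Atp5g2 and Atp5k of complex V. No member of complex IV was among them. With 1 library a group, and lists called from 8.09 M (GC) and 5.59 M (Del8) tags, no test was possible, and a peak missing from the shorter list is not shown to be absent.

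**Figure D1:**
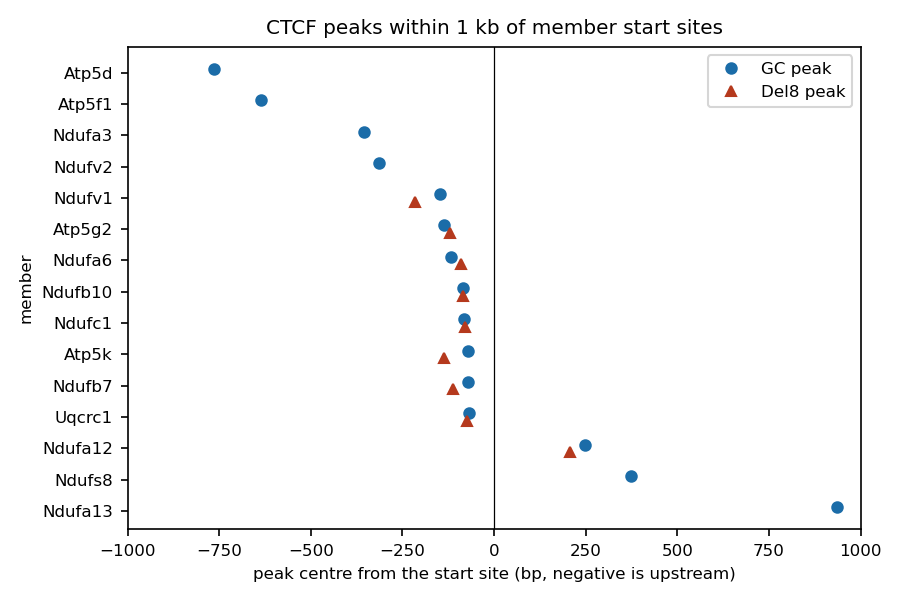
Distance in bp from the start site of 15 of the 16 members to the centre of the nearest GC (circle) and, where within 1 kb, Del8 (triangle) CTCF peak; negative values are upstream. In Atp5g2, Ndufa6, Ndufb10, Ndufc1, Atp5k, Ndufb7 and Uqcrc1 the GC centre lies 69 to 136 bp upstream of the start.

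Between genotypes, 5 of the 72 members were lower in d8 and none was higher (limma on line means, two-sided, Benjamini-Hochberg over 12468 genes, adjusted p at most 0.05). The 5 were Ndufb7 and Ndufb3 of complex I, Uqcr10 of complex III and Atp5k and Atp5h of complex V. Of all genes tested 5.74% were lower and 3.02% higher, so the count of members that fell was near the background. At an unadjusted p under 0.05, 30 members were lower and 0 higher, against 2007 lower and 1463 higher of all genes. In these bulk samples fewer cells of a type and less RNA per cell cannot be told apart.

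Most members were somewhat lower in d8 without passing the test singly. Their log2 fold changes (d8 minus GC, on log2(RPKM + 1)) had a median of -0.14 and ran from -1.02 to 0.16, with 62 of 72 below 0 (86.1%). Over all genes tested the median was -0.02, with 54.1% below 0. In 39 of the 72 members both GC line means lay above all 3 d8 line means, against 25.9% of all genes. In 3 of the 72 (Ndufa1, Ndufa13 and Atp5g2) all d8 lines lay above both GC lines, against 20.3%. Without library GC 1C the median was -0.09, with 53 below 0. Both GC lines then lay above in 25 of the 72 members, against 24.6% of all genes, and all d8 lines in 6 of 72, against 20.9%. With all libraries scaled to the same RPKM sum the median was -0.10, with 54 below 0, while the median of all genes was 0.02 and their calls were 583 lower and 508 higher instead of 716 and 376. At this scaling both GC lines lay above in 31 of the 72 members and all d8 lines in 6 of 72, against 20.7% and 25.4% of all genes.

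Chromosome 11 carried 387 of the genes that fell, 36.3% of the 1067 tested on it, against 2.89% of the 11401 genes of other chromosomes. Off chromosome 11, 3 of 68 members fell. There the members' median was -0.13 with 85.3% below 0, against -0.0048 and 50.8% for the other-chromosome genes, and without library GC 1C it was -0.076 with 49 of 68 below 0. In 36 of the 68 both GC lines lay above all d8 lines, against 21.6% of all genes once chromosome 11 was left out. The 4 members on chromosome 11 had a median of -0.43, beside -0.40 for the genes tested on that chromosome. When each chromosome was centred in each line, 4 members were lower, against 2.14% of all genes. These were Ndufb7, Uqcr10, Atp5k and Atp5o of the peripheral stalk (-0.37, adjusted p = 0.048, and -0.43 with 0.058 without centring), while Ndufb3 and Atp5h were not called. The calls over all genes were then 267 lower and 283 higher.

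Members were short and highly expressed transcripts, with a median length of 663 bases against 2692 over the genes tested. The 221 other genes off chromosome 11 shorter than 1000 bases and at 50 RPKM or more had a median of -0.06 with 63.8% below 0. The part that transcript length plays in the members' shift was not tested.

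**Figure D2:**
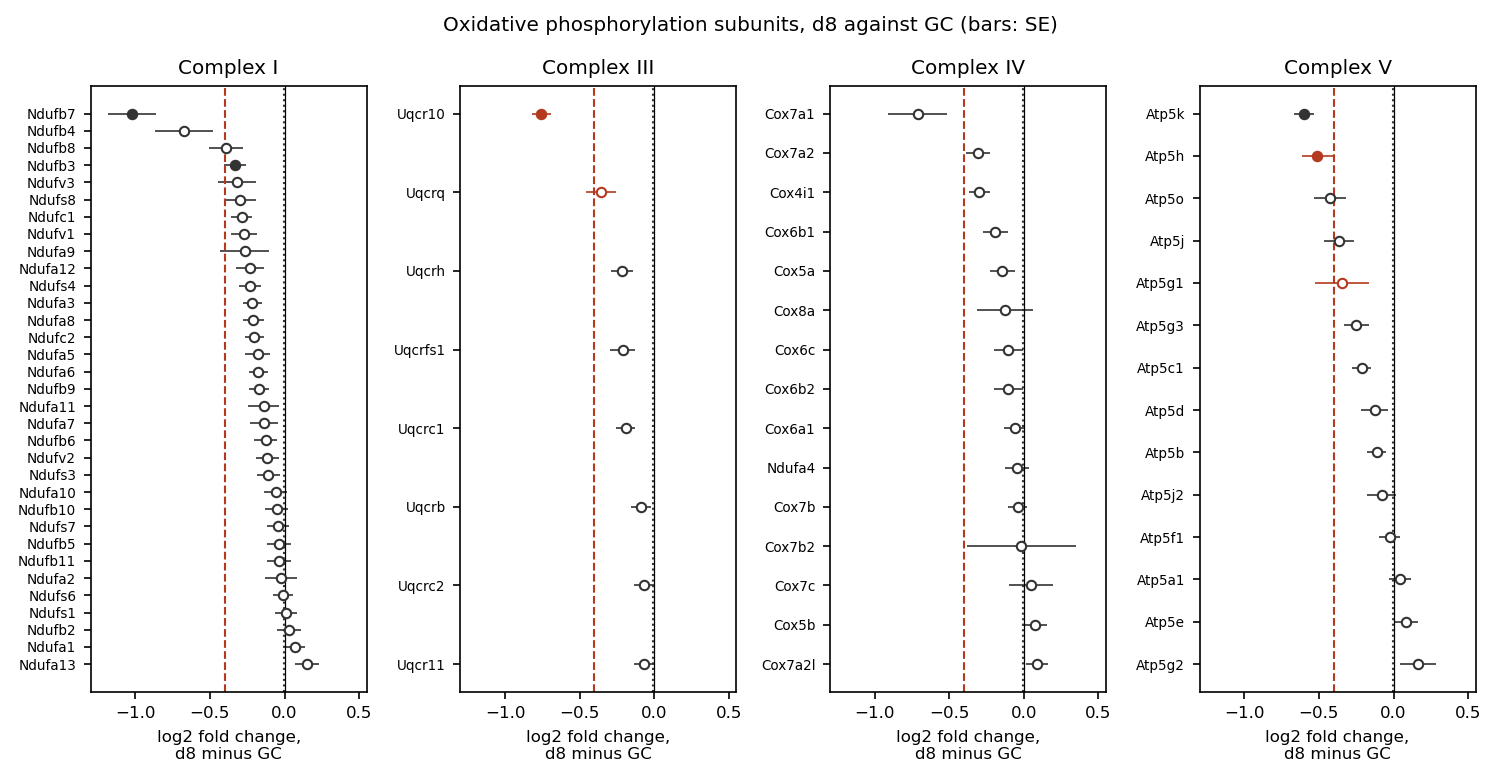
Log2 fold change (d8 minus GC) of 70 structural members past the filter, by complex; bars are the standard error from limma, filled points passed the test, and red points are on chromosome 11. The dotted line is the median of genes off chromosome 11 and the dashed red line that of chromosome 11 genes (-0.40); most points lie left of 0, and 5 are filled.

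Complex I, the NADH dehydrogenase, had a median log2 fold change of -0.17 over 34 members, none on chromosome 11, with 2 lower and 30 below 0, and without library GC 1C a median of -0.11 with 25 below 0. Its 7 core subunits, which carry the flavin and iron-sulfur clusters, had a median of -0.12 (-0.071 without library GC 1C) with none past the threshold (3 lower and 0 higher at an unadjusted p under 0.05, limma). Its 27 accessory subunits had a median of -0.18 (-0.13 without library GC 1C) and held both calls. The largest difference of all members was in Ndufb7, an accessory subunit on the intermembrane-space side of the membrane arm (chr8:83566758-83571623, mm10).

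Ndufb7 stood at 116, 128 and 172 RPKM in GC line 1 and at 162, 134 and 117 RPKM in GC line 2. In the d8 lines it stood at 57.9, 63.5 and 55.8 RPKM (line 1), 54.8, 71.2 and 53.9 RPKM (line 2) and 86.6 and 84.0 RPKM (line 3). Every GC library was above every d8 library, and d8 line 3 was above d8 lines 1 and 2. The line means were 138 ± 0.553 RPKM in GC (SD, n = 2 lines) and 68.1 ± 14.9 RPKM for d8 (SD, n = 3 lines), which is -1.02 on the log2 scale (SE 0.16, adjusted p = 0.022 in limma). The adjusted p lay between 0.051 and 0.091 when GC line 1, GC line 2, d8 line 1 or d8 line 2 was left out, with log2 fold changes from -1.02 to -0.93. The 2 neighbouring genes tested within 50 kb were not called, with log2 fold changes of -0.36 and 0.11.

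Ndufb3, an accessory subunit of the membrane arm (chr1:58586397-58595964), showed a smaller difference. Its levels were 27.7, 24.7 and 32.8 RPKM in GC line 1 and 25.9, 28.9 and 26.3 RPKM in GC line 2. They were 21.4, 19.99 and 22.4 RPKM in d8 line 1, 21.5, 23.2 and 22.5 RPKM in d8 line 2 and 21.4 and 21.8 RPKM in d8 line 3. The genotypes did not overlap in any library, and the d8 libraries lay within a narrow range. The log2 fold change was -0.33 (SE 0.074, adjusted p = 0.043 in limma), and the call was lost without any single line (adjusted p 0.076 to 0.16) and without single libraries GC 1C, GC 2B, d8 1C or d8 2A (0.058 to 0.067). It was also lost with each chromosome centred (0.068), with chromosome 11 left out (0.062), with scaling by the median ratio (0.054) and with equal RPKM sums (0.069), while the log2 fold change stayed between -0.38 and -0.28 in all 29 alternatives.

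The most abundant complex I member was Ndufa7, an accessory subunit of the matrix arm. Its GC libraries ran from 188 to 277 RPKM (median 222) and its d8 libraries from 174 to 244 RPKM (median 204). The genotypes overlapped, and the log2 fold change was -0.14 (SE 0.091, adjusted p = 0.38 in limma), and -0.064 without library GC 1C. At the other end, Ndufs5, a small accessory subunit, was at 0 to 0.393 RPKM, which is 0 to 3 reads a library. RefSeq names a pseudogene for it, and whether its reads were lost to a copy was not tested. The same was not tested for Cox7c of complex IV (1.62 to 4.59 RPKM) and Atp5l of complex V (0.13 to 1.34 RPKM), which were also far below their complexes and have named pseudogenes. The 4 complex I members above 0 were Ndufs1, Ndufb2, Ndufa1 and Ndufa13, at log2 fold changes from 0.0094 to 0.15, none past the threshold.

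**Figure D3:**
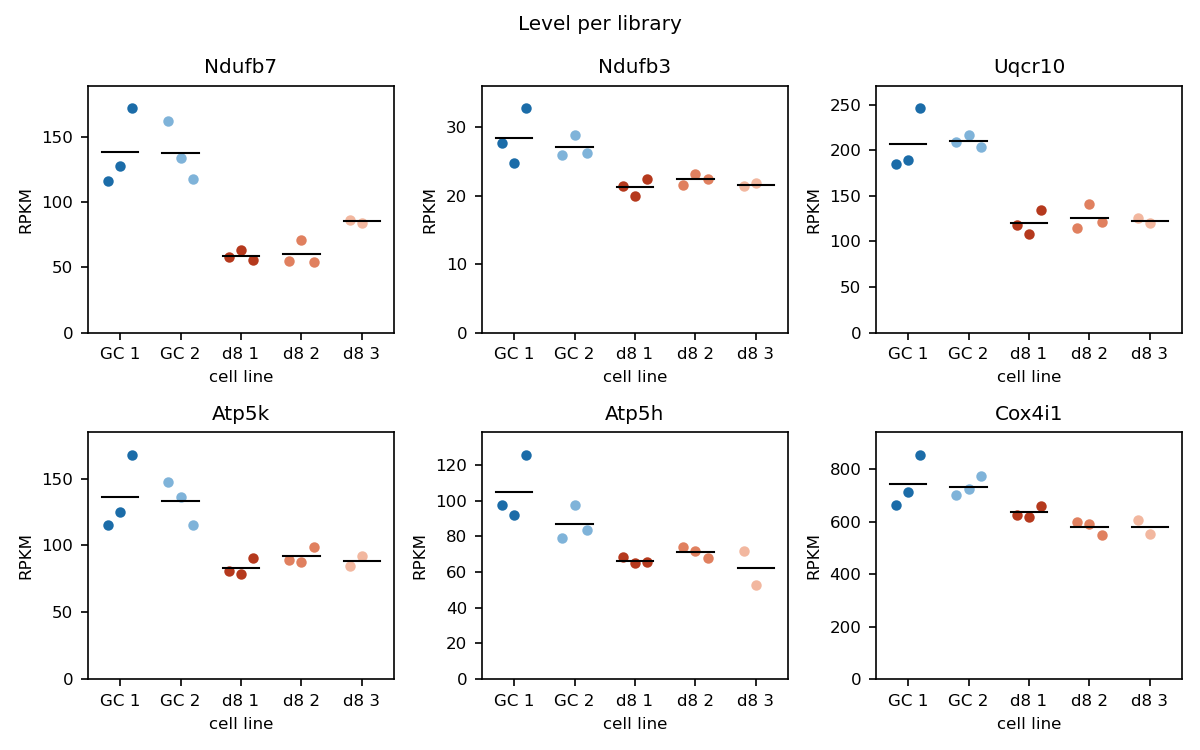
RPKM of the 5 members lower in d8 and of Cox4i1, the most abundant complex IV member, in each library (points, in the order A, B, C) and line (bars: line means), with axes from 0. In all 6 genes the lowest GC library is above the highest d8 library, as at 116 against 86.6 RPKM in Ndufb7.

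Complex III, the cytochrome bc1 complex, had all 8 members below 0 and 1 call, and the median of its log2 fold changes was -0.20 (-0.13 without library GC 1C). Without its 2 chromosome 11 members the median was -0.14 (-0.093 without library GC 1C) and none passed the threshold (3 lower and 0 higher at an unadjusted p under 0.05, limma). Uqcr10, a small membrane subunit (chr11:4701968-4704344), was also its most abundant member. It stood at 185, 190 and 246 RPKM in GC line 1, at 210, 217 and 203 RPKM in GC line 2, at 118, 108 and 134 RPKM in d8 line 1, at 115, 141 and 121 RPKM in d8 line 2 and at 126 and 120 RPKM in d8 line 3. The groups lay far apart, with every GC library above every d8 library. The line means were 209 ± 2.20 RPKM (SD, n = 2 lines) and 123 ± 2.73 RPKM (SD, n = 3 lines), which is -0.76 on the log2 scale (SE 0.061, adjusted p = 0.0077 in limma). With chromosome 11 centred it was -0.36 (adjusted p = 0.048). The call was lost with the line number as a replicate block (-0.76, adjusted p = 0.066 in limma). Its 1 tested neighbour within 50 kb, Zmat5, was also lower (-1.03).

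Uqcrq, a small subunit beside cytochrome b (chr11:53427922-53430831), stood at 50.5, 52.3 and 67.6 RPKM in GC line 1 and at 64.4, 58.3 and 47.7 RPKM in GC line 2. In d8 it stood at 39.2, 36.8 and 41.2 RPKM (line 1), 43.2, 50.8 and 39.6 RPKM (line 2) and 49.9 and 47.2 RPKM (line 3). The line means did not overlap, but single libraries did. The log2 fold change of -0.36 (SE 0.0996, adjusted p = 0.075 in limma) missed the threshold, and with chromosome 11 centred it was 0.04. Of the core members off chromosome 11, the Rieske iron-sulfur protein Uqcrfs1 stood at 75.9 RPKM in GC and 65.4 RPKM in d8 on average (adjusted p = 0.16 in limma). Uqcrc1 stood at 134 and 116 RPKM (adjusted p = 0.11 in limma), and Uqcrc2 differed less, at 96.0 and 91.5 RPKM (adjusted p = 0.54 in limma). These were picked from the complex after its values were seen.

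Complex IV, cytochrome c oxidase, had a median log2 fold change of -0.10 over 15 members, none on chromosome 11, with 12 below 0 (-0.019 and 10 without library GC 1C) and none past the threshold (3 lower and 0 higher at an unadjusted p under 0.05, limma). Its most abundant member was Cox4i1, the broadly expressed isoform of subunit 4 (chr8:120668320-120674209). Its GC libraries ran from 662 to 854 RPKM (median 718) and its d8 libraries from 550 to 660 RPKM (median 602). The genotypes did not overlap, by a narrow margin. The log2 fold change was -0.30 (SE 0.072, adjusted p = 0.052 in limma), and the adjusted p was 0.0499 without library GC 1A and 0.045 without library d8 2B. It was 0.049 with a pseudocount of 0.1 RPKM, 0.045 with a filter at 5 RPKM, 0.015 over single libraries with lines as random and 0.023 when sample letters were added as a replicate block.

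Several complex IV subunits have isoforms that are known from muscle, testis or hypoxic tissue, and in these ES cells the broadly expressed isoform was the higher of each family. Cox4i2, the isoform of lung and hypoxia, was at 0.088 to 1.22 RPKM. Cox6a1 was at 184 to 258 RPKM, with the muscle isoform Cox6a2 at 0 to 0.202 RPKM. Cox8a was at 95.1 to 238 RPKM, with Cox8b, the muscle isoform, at 0 to 0.694 RPKM and Cox8c, the testis isoform, at 0 to 0.396 RPKM.

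Cox6b2, described as the testis isoform, was an exception in level, at 24.3 to 49.1 RPKM beside 246 to 371 RPKM of Cox6b1. Its GC median was 31.8 RPKM and its d8 median 31.0 RPKM, with overlapping groups (log2 fold change -0.10, SE 0.095, adjusted p = 0.52 in limma). Cox6b1 had a GC median of 295 RPKM and a d8 median of 270 RPKM (log2 fold change -0.19, SE 0.085, adjusted p = 0.20 in limma), also with overlap. Ndufa4 stood at 214 to 276 RPKM, while the hypoxia-induced Ndufa4l2 stood at 0.065 to 1.52 RPKM. Cox7b was at 118 to 149 RPKM against 0.687 to 4.42 RPKM of Cox7b2.

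In the Cox7a family, Cox7a2 led with 151 to 211 RPKM in GC (median 167) and 122 to 151 RPKM in d8 (median 142). Its groups overlapped slightly, with a log2 fold change of -0.31 (SE 0.081, adjusted p = 0.064 in limma). Cox7a1, the muscle isoform (chr7:30184171-30186030), stood at 6.87, 3.65 and 7.36 RPKM in GC line 1 and 9.00, 10.6 and 9.33 RPKM in GC line 2. In d8 it stood at 3.11, 4.72 and 6.24 RPKM (line 1), 6.24, 3.27 and 3.72 RPKM (line 2) and 3.65 and 3.77 RPKM (line 3), on 16 to 58 reads a library. GC line 2 was highest, and GC line 1 overlapped the d8 lines in single libraries. The log2 fold change was -0.71 (SE 0.20, adjusted p = 0.076 in limma), and without library GC 1B it was -0.85 (adjusted p = 0.028). Among the 3 muscle markers tested 1 was lower in d8, and that list summed to 4.95 to 7.97 RPKM in GC and 2.56 to 5.93 RPKM in d8. Its part in the Cox7a1 level was not tested. Cox7a2l, which joins complexes III and IV in supercomplexes, was at 39.5 to 49.1 RPKM in GC and 42.5 to 54.6 RPKM in d8, with a difference of 0.09 (log2, SE 0.075, adjusted p = 0.48 in limma).

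Complex V, the ATP synthase, had a median log2 fold change of -0.17 over 14 members, with 2 lower and 11 below 0. Without library GC 1C the median was -0.13, with 9 below 0. Without its 2 chromosome 11 members the median was -0.12 (-0.076 without library GC 1C) and 1 was lower. By part of the enzyme, the median was -0.11 for the 5 members of the catalytic F1 head (-0.074 without library GC 1C), none of them on chromosome 11. It was -0.40 for the 4 of the peripheral stalk, which holds the head against the rotor, and -0.37 for the 3 of these off chromosome 11. Without library GC 1C the stalk medians were -0.35 and -0.33. For the 5 of the membrane part the median was -0.25 (-0.20 without library GC 1C). It was -0.16 for the 4 of these off chromosome 11 (-0.096 without library GC 1C). The 1 stalk member that passed the test, Atp5h, lies on chromosome 11, and none of the 3 others did. Of these 3, Atp5f1 was at -0.03, while Atp5j and Atp5o both lie on chromosome 16. In Atp5j and Atp5o GC line 2 was above GC line 1, by 0.31 and 0.32 (log2, adjusted p = 0.061 and 0.076 in limma). No difference between the parts was tested.

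Atp5k, subunit e of the membrane part, which acts in the pairing of ATP synthase (chr5:108433246-108434399), fell in d8. Its levels were 115, 125 and 168 RPKM in GC line 1 and 148, 137 and 115 RPKM in GC line 2. They were 80.8, 78.4 and 91.0 RPKM in d8 line 1, 88.9, 87.7 and 99.1 RPKM in d8 line 2 and 84.3 and 92.4 RPKM in d8 line 3. The groups did not overlap in any library. The line means were 135 ± 1.98 RPKM (SD, n = 2 lines) and 87.9 ± 4.28 RPKM (SD, n = 3 lines), which is -0.60 on the log2 scale (SE 0.069, adjusted p = 0.015 in limma). The call was lost without GC line 1 and without d8 line 3 (adjusted p = 0.063 in limma). It was also lost with the line number as a replicate block (0.082). The log2 fold change stayed between -0.65 and -0.52 in all 29 alternatives. RefSeq names 4 Atp5k pseudogenes, and whether reads were shared with them is uncertain. Its 1 tested neighbour within 50 kb had a log2 fold change of 0.05 and was not called.

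Atp5h, subunit d of the peripheral stalk (chr11:115415697-115419919), stood at 97.5, 91.9 and 126 RPKM in GC line 1 and at 78.9, 97.8 and 83.8 RPKM in GC line 2. In d8 it stood at 68.3, 65.0 and 65.8 RPKM (line 1), 74.1, 72.0 and 67.7 RPKM (line 2) and 71.9 and 53.0 RPKM (line 3). Every GC library was above every d8 library, with the nearest at 78.9 and 74.1 RPKM. The log2 fold change was -0.51 (SE 0.10, adjusted p = 0.034 in limma), close to the -0.40 of chromosome 11. With chromosome 11 centred it was -0.12 (adjusted p = 0.42). The call was lost without GC line 1 (-0.38, adjusted p = 0.13), without each d8 line (0.055 to 0.10) and without libraries GC 2B (0.058) or d8 3A (0.052). Of its 3 tested neighbours within 50 kb, Kctd2 and Mrpl58 were also lower.

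The rotor ring of complex V is built of subunit c, for which 3 genes code the same mature protein with different import sequences. Nearly all of the RPKM measured for it lay in Atp5g3, at 282 to 352 RPKM in GC (median 326) and 244 to 297 RPKM in d8 (median 274). These ranges overlapped, and the log2 fold change of -0.25 (SE 0.083, adjusted p = 0.11 in limma) missed the threshold. Atp5g1, on chromosome 11 (chr11:96072793-96075694), stood at 7.54, 8.54 and 13.9 RPKM in GC line 1 and 6.62, 10.7 and 4.62 RPKM in GC line 2, beside 5.03 to 10.4 RPKM in d8 (median 6.14). Its groups overlapped (log2 fold change -0.35, SE 0.18, adjusted p = 0.27 in limma), with -0.22 without library GC 1C and 0.05 with chromosome 11 centred. Atp5g2 was at 0.765 to 1.96 RPKM on 7 to 19 reads, with overlapping libraries (log2 fold change 0.16, SE 0.12, adjusted p = 0.42 in limma). Whether reads of Atp5g1 or Atp5g2 were lost to copies elsewhere was not tested.

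The catalytic subunit Atp5b was the most abundant of all members, at 960 to 1139 RPKM in GC (median 1035) and 912 to 995 RPKM in d8 (median 970). The libraries overlapped, and the log2 fold change was -0.11 (SE 0.065, adjusted p = 0.31 in limma), and -0.074 without library GC 1C. In all, 9 of the 72 members past the filter had every GC library above every d8 library, against 7.35% of all genes. Beside the 5 that fell and Cox4i1 these were Ndufb8 (adjusted p = 0.080), the central stalk subunit Atp5c1 (0.086) and Atp5j of the peripheral stalk (0.072), which were named after their values were seen.

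The summed level of each complex was lower in d8 on average. Complex I summed to 2491 ± 110 RPKM in GC (SD, n = 2 lines) and 2176 ± 34.6 RPKM in d8 (SD, n = 3 lines), a difference of -12.6%. Complex III summed to 869 ± 0.0841 and 708 ± 6.47 RPKM (-18.5%). In both the d8 lines lay below both GC lines, and without Uqcr10 and Uqcrq complex III summed to 603 ± 2.10 and 541 ± 8.56 RPKM (-10.3%). Complex IV summed to 2437 ± 97.7 and 2153 ± 75.5 RPKM (-11.7%), and complex V to 3294 ± 71.8 and 2953 ± 66.6 RPKM (-10.3%). The GC line means again lay above all d8 line means, while library GC 1C was the highest of each complex. Without that library the differences were -8.32% for complex I, -15% for complex III, -8.18% for complex IV and -7.09% for complex V, and in complex V the mean of GC line 1 (3012 RPKM) then lay below that of d8 line 1 (3023 RPKM). Such sums weigh the most abundant members most, and no test was made of them.

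**Figure D4:**
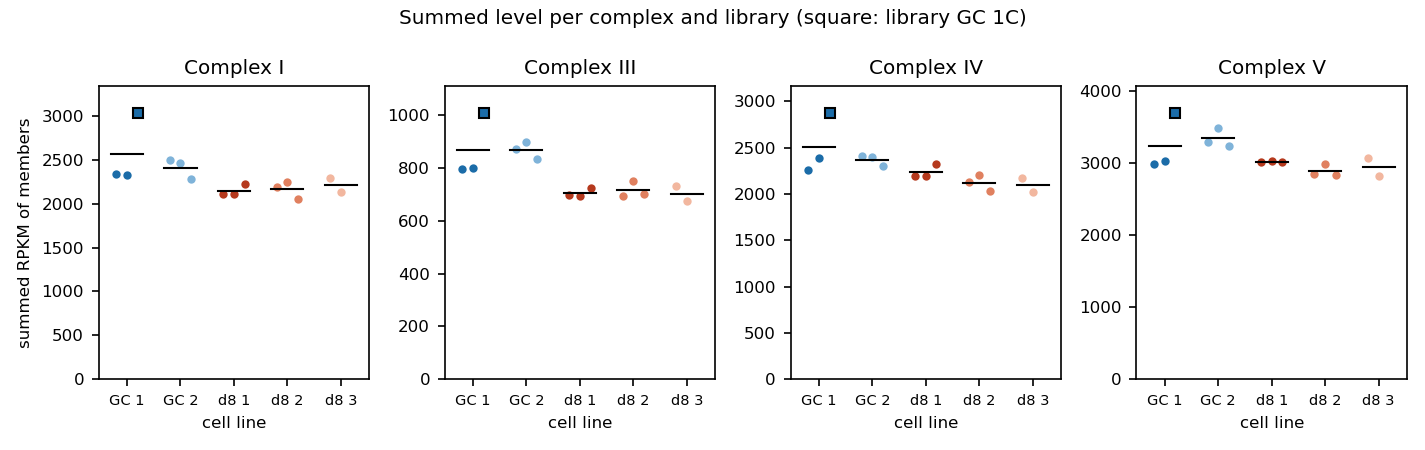
Summed RPKM of the members of each complex in every library (points) with line means (bars), axes from 0; the square is library GC 1C. In complex III the GC libraries run from 796 to 1010 and the d8 libraries from 675 to 751, and without its chromosome 11 members they run from 558 to 696 and from 508 to 560, which overlap.

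Few single members passed the test between lines of the same genotype. Between the GC lines, 2 of 72 members passed the test (limma over single libraries, either direction), against 6.60% of all genes. The members' median of GC line 2 minus line 1 was -0.026 with 44 below 0 (-0.014 over all genes). Without library GC 1C it was 0.088 with 17 below 0 (0.0031 over all genes). In that setting d8 minus GC had a median of -0.092 with 53 below 0. Ndufa9, an accessory subunit at the junction of the arms of complex I, stood at 96.2, 97.5 and 122 RPKM in GC line 1 and at 67.9, 69.0 and 69.8 RPKM in GC line 2. The GC lines did not overlap, and GC line 2 lay within the d8 range of 66.1 to 78.5 RPKM. The difference of GC line 2 minus line 1 was -0.59 (SE 0.087, adjusted p = 0.0018 in limma). Cox8a stood at 180, 185 and 238 RPKM in GC line 1 and 143, 131 and 95.1 RPKM in GC line 2, also without overlap, with a difference of -0.71 (SE 0.15, adjusted p = 0.015 in limma). Its d8 libraries lay between, at 117 to 159 RPKM.

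Without GC line 1, the d8 minus GC values of these genes turned from -0.27 to 0.03 in Ndufa9 and from -0.13 to 0.23 in Cox8a. The p-values between lines measure the spread between libraries of a line, which may be technical. The number of members that differed between the GC lines was 4 without library GC 1B or GC 2A and 1 without library GC 2C. Among the d8 lines, 1 of 72 members passed the F test (2.32% of all genes). It was Cox7b2, the testis isoform of subunit 7b, which stood at 4.42, 4.30 and 2.27 RPKM in d8 line 1, 1.104, 0.692 and 1.19 RPKM in line 2 and 1.63 and 0.687 RPKM in line 3 (limma adjusted p = 0.017). Line 1 was above the others in every library, at 6 to 34 reads per library over all lines. The call was lost without library d8 1A or d8 1B.

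**Figure D5:**
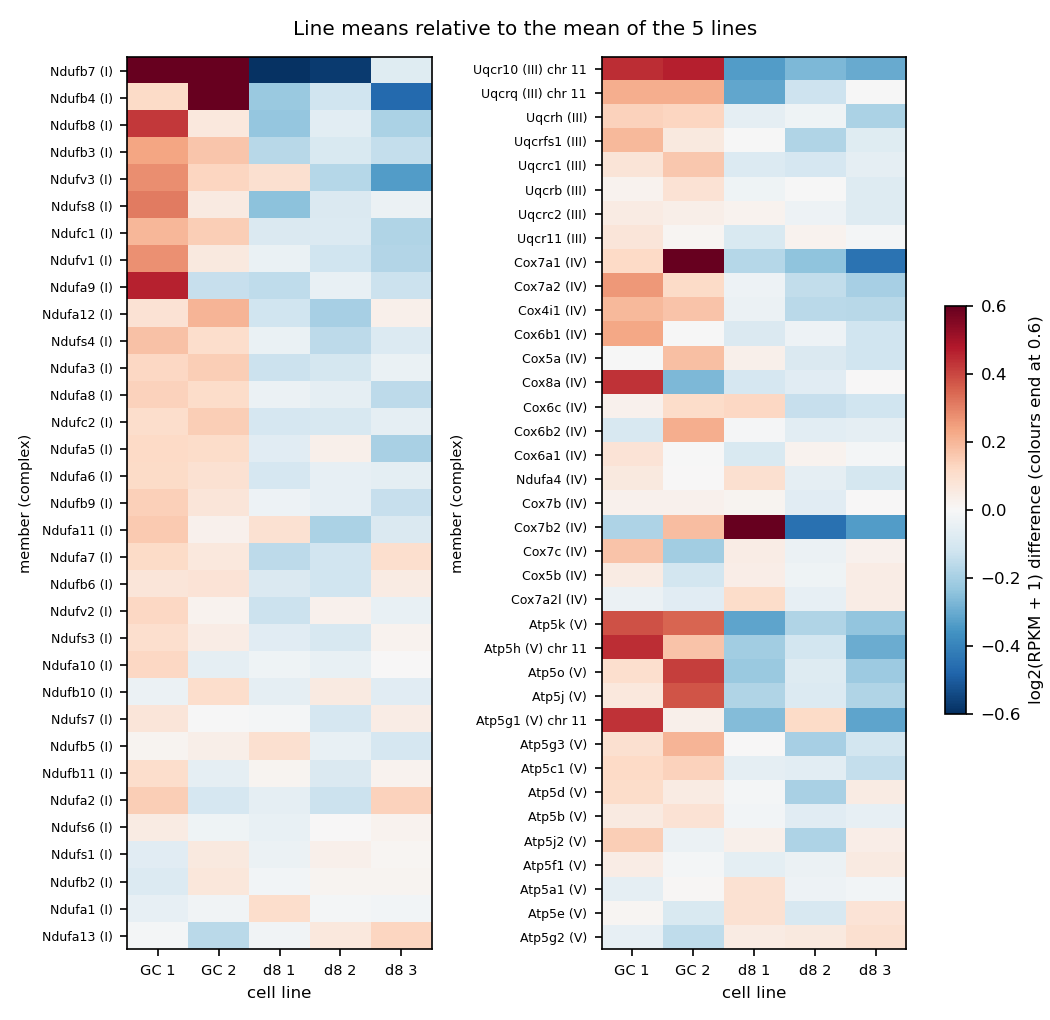
Log2(mean RPKM of the line + 1) of 70 structural members in the 5 lines, minus the member's mean of these values over the lines. Red is above and blue below, colours end at 0.6, and members are ordered by complex and fold change. Ndufb7, Uqcr10 and Atp5k are red in both GC lines and blue in d8 lines, while Ndufa9 and Cox8a are red in GC line 1 alone and Cox7b2 in d8 line 1 and, paler, GC line 2.

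Members with a GC peak at the start had a median log2 fold change of -0.18 (2 lower of 16), and those without had -0.13 (3 lower of 56). No test of this difference was made. The authors' deposited table of 1280 genes, whose library columns match none of the 14 libraries by name, lists 5 members. They make up 0.391% of its genes, while the members are 0.317% of the expression table. It holds only genes that moved by 0.50 or more on the log2 scale, up or down, with the authors' adjusted p under 0.05. Its fold changes are headed as control against del8, and the heading does not give the direction of the sign. Negative values are read here as lower in del8 than in that control. In the authors' deposited table Ndufb7 has a log2 fold change of -1.08 and Atp5k of -0.53, against -1.02 and -0.60 in the values above. Uqcr10 (-0.76), Atp5h (-0.51) and Ndufb3 (-0.33), which were also called lower above, are absent from it. The value of Ndufb3 lies below its cut on size. The authors' deposited table also lists Cox7b (-0.55), Cox6b2 (-0.54) and Cox5b (0.57), which stood at -0.04, -0.10 and 0.07 here.

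Other genes of the pathway were grouped by function. Beside their counts, 5.74% of all genes tested were lower and 3.02% higher. On chromosome 11 the share lower was 36.3%, and on other chromosomes 2.89%. No list was tested as a set. Complex II, succinate dehydrogenase, had 0 of 4 genes past the threshold in limma (1 lower and 0 higher at an unadjusted p under 0.05). Of 6 further subunits and electron carriers 1 fell, Etfb of the electron transfer flavoprotein, from 55.4 to 39.1 RPKM (log2 fold change -0.48, limma adjusted p = 0.035). Of 14 complex I assembly factors 1 fell, Ndufaf3. It stood at 5.58 and 6.79 RPKM in the GC lines and at 1.27, 1.41 and 1.58 RPKM in the d8 lines, a log2 fold change of -1.55 (SE 0.13, adjusted p = 0.0085 in limma), larger than that of any member tested. The gene lies on chromosome 9.

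Of 21 complex IV assembly factors 3 fell and 1 rose, against 5.74% lower and 3.02% higher of all genes tested. Coa3, which acts early on the mitochondrially encoded Cox1, fell from 72.4 to 41.4 RPKM (-0.78, limma adjusted p = 0.020), and the copper chaperone Cox11 fell from 14.9 to 9.42 RPKM (-0.61, adjusted p = 0.019). Both lie on chromosome 11, as do 5 of the 21, and of all genes tested on that chromosome 36.3% fell. Cox15, of heme A synthesis, fell off chromosome 11 (-0.52, limma adjusted p = 0.041), and Cox20, a chaperone of Cox2, rose from 28.7 to 37.6 RPKM (0.37, limma adjusted p = 0.035). Of 3 complex V assembly factors Atpaf2, on chromosome 11, fell (-0.74, limma adjusted p = 0.025).

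Of 6 complex III assembly factors 0 passed the threshold in limma, with 1 lower and 0 higher at an unadjusted p under 0.05. Of the 13 tested regulators of mitochondrial DNA expression and biogenesis 0 passed the threshold in limma, with 1 lower and 2 higher at an unadjusted p under 0.05. In the citric acid cycle 2 of 15 genes fell, namely Ogdh on chromosome 11 (-0.41, limma adjusted p = 0.025) and Fh1, fumarate hydratase, on chromosome 1 (-0.42, limma adjusted p = 0.031).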

How the data were processed

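RNA was measured in 14 libraries of 5 cell lines. Per the labels' protocols, libraries were stranded polyadenylated RNA read as 50 base single ends. Per the file headers, the deposited RPKM values were made by the authors with HOMER over the exons of mm10 genes with isoforms condensed to 1 per gene, and no strand option is named. Overlapping and antisense genes can therefore share reads. All values checked were whole multiples of 1 read within 0.1 read, which gave the depths. The deposited ChIP-seq peak lists (scores not used) came from HOMER, per the file headers. From the authors' deposited table, log2 fold changes were copied with their p-values, and 5 columns of other libraries were not used.

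Values were averaged per line as log2(RPKM + 1), a scale that understates changes of low genes, and tested with limma 3.58.1 (R 4.3.3, variance trend, two-sided, Benjamini-Hochberg, 0.05) over the 12468 genes at 1 RPKM or more in either genotype. Line comparisons used limma over single libraries. The procedure was tested on simulated data. Alternatives changed the pseudocount, filter, scaling, chromosome 11, blocking, peak window and samples left out. Leaving out single libraries in the comparison of genotypes, equal RPKM sums, medians without library GC 1C, sums without chromosome 11 members and both CTCF letter patterns were added after seeing the data. Nothing says that samples of a line are separate cultures.

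The members and lists were chosen with earlier results of these data known. Values per library are given for members past the threshold, on chromosome 11, highest in their complex, in isoform families or different between lines, and, from other lists, up to 2 genes past the threshold. Promoter sequences are RefSeq's (GRCm38.p6). One member that enters all counts and sums is not reported here by itself.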

Additional observations from a re-analysis of the deposited data

Results flagged for a closer look

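In 8 of 66 groups checked, 1 library stood apart from the rest of its genotype by Dixon's criterion, which flags about 1 group in 20 by chance. In d8, Atp5g1 reached 10.4 RPKM in library d8 2A, against 5.03 to 6.77 RPKM in the others. Atp5h was lowest in library d8 3B at 53.0 RPKM, against 65.0 to 74.1 RPKM. Cox6a1 was highest in library d8 2B at 242 RPKM, against 188 to 209 RPKM. Cox8c was at 0.261 RPKM in library d8 3B and at 0 in the other d8 libraries.

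In GC, Cox8b was at 0.694 RPKM in library GC 2A, against 0 to 0.167 RPKM, which is at most 4 reads. Ndufa4l2 was at 1.52 RPKM in library GC 1A, against 0.617 to 0.939 RPKM. In library GC 1C the members of complex I summed to 3040 RPKM, against 2278 to 2498 RPKM, and those of complex IV to 2878 RPKM, against 2256 to 2404 RPKM.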

How the results depend on the processing

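The 5 members lower in d8 became 2 with no filter (20792 genes), 2 with chromosome 11 left out and 18 in a fit of single libraries that treats the line as random. Over all genes tested, the 716 lower became 217 with no filter and 180 with chromosome 11 left out (11401 genes). They became 1507 in the fit of single libraries. Without a filter Ndufb7, Ndufb3 and Atp5h lost the call (adjusted p 0.061, 0.061 and 0.076). The 5 were 1 to 6 with a line left out (1 without GC line 1, 2 without each d8 line) and 3 to 8 with a library left out (3 without GC 2B, 8 without d8 2B). Deviations of same-letter libraries had correlations of both signs, from -0.29 (GC 1C with GC 2C) to 0.31 (GC 2A with d8 2A). The lines' numbers gave correlations of -0.16 and 0.15. Deviations of the 2 GC lines mirror each other, so these values cannot decide whether line numbers pair samples. The replicate block by letter gave 12 lower members (1323 lower over all genes) and that by line number gave 1 (15 over all genes). The 2 members that differed between GC lines became 3 with no filter, 5 with equal RPKM sums and 1 to 4 with a library left out. The 1 among d8 lines became 0 with a filter at 5 RPKM and 0 to 1 with a library left out. The 16 members with a GC peak became 9 within 0.2 kb and 33 within 5 kb, and the 10 with a Del8 peak 24 within 5 kb. The other settings moved these counts by less than 1.5 times. The causes were not tested.

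Without library GC 1C Cox6a1 moved from -0.062 to -0.0038, Ndufa4 from -0.047 to -0.0076 and Cox8a from -0.13 to -0.063. Of differences that missed the test, some changed sign. With chromosomes centred Uqcrq was at 0.036, Atp5g1 at 0.047 and Ndufa4 at 0.0076. With samples left out, Cox6b2 ran from -0.24 to 0.031 (without GC line 2), Cox8a from -0.48 to 0.23 (without GC line 1) and Ndufa9 from -0.56 to 0.031 (without GC line 1). Cox7b ran from -0.078 to 0.0043 (without library GC 1C) and was at 0.0064 with equal RPKM sums. Cox7b2 (-0.02) was at 0.00091 with median-ratio scaling, 0.0069 with the random block, 0.012 with the letter replicate block, 0.15 with the line-number replicate block, 0.010 with equal RPKM sums and -0.40 to 0.20 with samples left out.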
